A study of Mus musculus with 5 samples.

Results

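The course of the Linc1405 knockdown line was followed between its own arrays, from day 4, labelled mesoderm, to day 10, labelled cardiomyocytes. These 2 arrays are 2 of the 5 in the series, which also holds mouse embryonic stem cells (ESCs) at day 0 and a control line at days 4 and 10. The measure is the log2 intensity at day 10 minus that at day 4, called here the knockdown course, and the same difference in the control line is called the control course. A gene was kept where the brighter array of its pair reached that array's median, a log2 intensity of 9.16, which left 11416 of 17742 measured genes. The rule did not use the size or the direction of the difference. At its edge, Lag3 was just inside with log2 levels of 8.93 at day 4 and 9.16 at day 10, a difference of 0.23, and Olfr198 was just outside with 9.16 and 7.66, a difference of -1.50.

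All 5 cultures came from the mouse ESC line 46C, and the ESC array carries the genotype label control. ESCs were grown with serum and leukaemia inhibitory factor on feeder cells that were taken away at harvest. Cells of both lines at day 4 had been given Bmp4, Activin A and VEGF in a serum-free medium with N2 and B27, and cells at day 10 bFGF, VEGF and FGF10 in StemCell Pro-34 medium, so that the factors and the medium changed together with the day. The knockdown line is labelled as a knockdown of Linc1405, a long noncoding RNA, and its samples carry the names MES_1405KIpA and CM_1405KIpA. What those names stand for, and whether the line is 1 clone, are not given in the sources used here, and no probe was identified as Linc1405, so the knockdown itself was not checked. Each group held 1 array, so no value below has a spread between cultures and no test was made. As a guide to probe error, pairs of probes of the same gene differed with a between-probe SD, for a single probe, of 0.718 on the log2 scale over 1166 genes of the knockdown course. For the knockdown course minus the control course the SD was 0.364 over 1207 genes, and the probes of a pair correlated with r = 0.589. Probe error does not include differences between cultures.

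Cardiac mesoderm forms when cells of the embryo leave the pluripotent state through the primitive streak under Nodal, Wnt and Bmp signals. Eomes and T, T-box transcription factors, mark the streak, and Mesp1 marks the cells that leave it for the heart. Their descendants include cardiomyocytes, endothelium and smooth muscle, while the outer layer of the heart, the epicardium, comes from a mesothelial progenitor and gives rise to fibroblasts and mural cells. Because each array measures a whole culture, fewer cells of a type and less RNA per cell cannot be told apart.

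Between day 4 and day 10 the knockdown line lost RNA of the streak, of early mesoderm and of early blood, and gained RNA of matrix, epicardium, endothelium and contractile muscle. A gene is said here to have risen or fallen where it was kept and its difference was at least 2-fold. By that rule 2139 genes rose and 2062 fell. They make up 12.1% and 11.6% of all measured genes, and 18.7% and 18.1% of those kept. In the control course 2182 genes rose and 2214 fell, 12.3% and 12.5% of all measured genes. The split between risers and fallers depends on how arrays are scaled. With the values as deposited 1441 rose and 3925 fell, and with a loess curve through the differences 2508 rose and 1496 fell, against 50.9% risers in the quantile-normalized values. The median of all genes lay at -0.58 for the knockdown course with the values as deposited and at -0.20 when arrays were scaled to the 75th percentile, against 0 here. Directions of gene lists are therefore relative to that median.

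**Figure D1:**
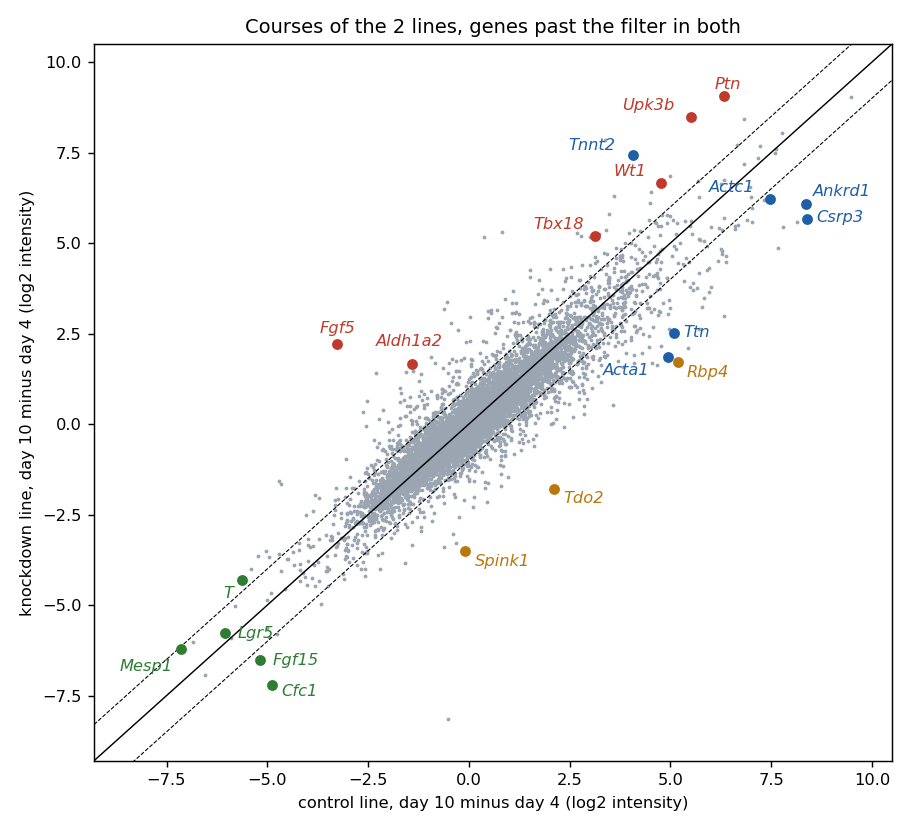
Log2 difference from day 4 to day 10 in the knockdown line (vertical axis) against the same difference in the control line (horizontal axis) for 11115 genes kept in both courses, 1 point a gene. The solid line marks equal differences and the dashed lines differ by 1 on the log2 scale. Labelled genes are coloured by kind (green streak, early mesoderm and FGF; blue muscle; red epicardial and others higher in the knockdown course; ochre endoderm and liver type). Muscle genes such as Ttn lie below the diagonal, and Upk3b, Wt1 and Tnnt2 lie above it.

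The courses of the lines share no array. Across the 11115 genes kept in both, they correlated with r = 0.920 and a rank correlation of 0.913, and genes are not independent replicates. Of the risers of the knockdown course, 1679 also rose in the control course, which is 78.5% of the one list and 76.9% of the other. Of the fallers, 1601 fell in both, 77.6% and 72.3%. The rises ran further than the falls: 889 genes were at least 4-fold higher at day 10 and 415 at least 4-fold lower, 173 against 37 at 16-fold and 27 against 7 at 64-fold. The control course leaned the same way, with 967 against 462, 189 against 36 and 39 against 4. All these counts are from the quantile-normalized values only. Both SDs were close, 1.38 for the knockdown and 1.41 for the control course.

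Streak genes fell as a group, with 0 of 15 measured members rising, 10 falling and a list median of -2.41, against 12 falling and a median of -3.05 in the control course. The list's median level was 10.36 and 8.46 at days 4 and 10 in the knockdown line, and 12.03 and 9.09 in the control line. Cfc1, a co-receptor for Nodal, had the largest fall among genes measured above the floor on both arrays. Its log2 level was 8.69 in ESCs, 15.10 and 7.89 at days 4 and 10 in the knockdown line, and 15.04 and 10.16 in the control line. The lines were alike at day 4, and the level at day 10 was lower in the knockdown line, so that Cfc1 fell by 7.22 there and by 4.88 in the control. T, whose levels were 10.62 in ESCs, 13.98 and 9.67 in the knockdown line and 14.92 and 9.28 in the control line, fell by 4.31 and 5.64. The homeobox gene Evx1 went from 14.40 to 8.78 in the knockdown line, a fall of 5.62, and from 14.91 to 9.91 in the control. Eomes, the T-box factor that the series title places in a complex with Linc1405, was at 12.15 in ESCs, 12.17 and 10.31 in the knockdown line and 12.01 and 10.05 in the control. Its level at day 4 was thus close to that of ESCs in both lines, and it fell by 1.86 and 1.96.

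Genes of cardiac and lateral mesoderm held both directions, with 4 of 21 rising and 11 falling. Mesp1 stood at the floor of 6.64 in ESCs and at day 10 in both lines and at 12.86 at day 4 in the knockdown line, a fall of at least 6.21. In the control line it stood at 13.78 at day 4, a fall of at least 7.13. Msx2, a homeobox target of Bmp signals, fell by 4.96 from 13.14 to 8.19, and the T-box gene Tbx3 fell by 4.32. Hand1, a basic helix-loop-helix factor of lateral mesoderm, fell by 3.81 from 16.07 to 12.27. Foxc1, a forkhead factor of mesoderm, rose by 2.97, Osr1 by 2.12, Foxc2 by 1.55 and Pdgfra, a receptor for platelet-derived growth factor, by 1.16. Kdr, the VEGF receptor of vascular and cardiac progenitors, was at 13.49 and 13.35 in the knockdown line and fell by 1.15 in the control line. Presomitic genes gave 0 risers and 5 fallers of 15. Their largest falls were in the caudal factor Cdx2, by 3.85 from 14.67 to 10.83, and Cdx4, by at least 3.63. Cdx2 was at 12.96 and 11.38 in the control line, so the knockdown line began higher and ended lower.

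Growth factors of the early embryo were among the largest falls. Fgf3 fell by 6.93, from 15.27 to 8.33, Fgf15 fell by 6.52, from 14.89 to 8.37, and Fgf4 fell by 3.72, from 11.02 to 7.30. Of 22 genes of the FGF pathway 10 fell and 2 rose, the ligands Fgf1, from the floor by at least 3.34, and Fgf5. Fgf8 fell by 4.01 on its brightest probe and by 2.13 and 0.42 on its other probes. The transcription factor genes Fos, Fosb and Egr2 were among the 15 lowest differences, with Fos at 16.09 and 11.25, Fosb at 13.96 and 8.92 and Egr2 at 11.81 and 7.24. In the control course these 3 genes differed by -5.02, -5.81 and -4.56. Alox15, a lipoxygenase, fell by 5.92 in the knockdown line, and in the control line it fell by 5.90.

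Pluripotency genes had a lower median at day 4 than in ESCs. The median log2 level of the list of 23 was 15.42 in ESCs, 9.94 at day 4 and 9.62 at day 10 in the knockdown line, with 7 falling and 2 rising between the days. In the control line 12 fell and 1 rose, and the list median was 11.08 at day 4 and 9.65 at day 10. The knockdown line thus began at a lower median and ended at a like one. Sox2 fell by 1.49 from 10.58, having been at 17.26 in ESCs, and Lin28a, an RNA-binding protein of early cells, by 4.46 from 14.19. Pou5f1 was level, at 10.91 and 10.94. Prdm14, a pluripotency regulator, rose by 4.63. Its levels were 11.37 in ESCs, 8.56 and 13.18 in the knockdown line, and 8.38 and the floor in the control line, so that the knockdown line at day 10 stood above all other arrays.

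Of 29 cell-cycle genes measured, 18 fell and 0 rose, with a median of -1.20 in both courses. Ccne2 and Ccne1, cyclins of entry into S phase, fell by 2.52 and 2.19, and Mcm5 and Mcm2, parts of the replicative helicase, by 2.45 and 2.13. A second probe of Ccne2 gave -1.39. The proliferation antigen Mki67 went from 15.56 to 14.53, and a second probe gave -0.44. Ccnb2, a cyclin of mitosis, was 0.91 higher. Among 20 genes of cell-cycle inhibition and the p53 pathway, 5 rose and 2 fell, with a rise of 5.59 for the death receptor Fas, from 7.18 to 12.77, and of 2.54 for the inhibitor Cdkn2c.

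Early blood regulators fell, 9 of 16 blood genes against 2 that rose. Etv2, the ETS factor that specifies blood and endothelium, was at 10.02 in ESCs, 13.95 and 8.16 in the knockdown line and 14.83 and 10.08 in the control line. It fell by 5.80, to below its ESC level, and in the control line it fell by 4.75. Gfi1b, Gata1 and Klf1, regulators of red cell and platelet precursors, differed by -4.49, -3.70 and -3.56. At day 4 all 3 were higher in the knockdown than in the control line, with Gfi1b at 11.33 against 10.58, Gata1 at 11.97 against 11.43 and Klf1 at 12.23 against 10.91. Slc4a1, the anion exchanger of red cells, rose by 2.96 to 9.90, and Cd34, shared by progenitors and endothelium, by 2.41 to 12.74. Endothelial genes rose, 12 of 19 against 0 that fell, and their median of 1.85 was close to 1.94 in the control course. Emcn, a sialomucin of endothelium, was at 9.19 and 14.81 in the knockdown line and 8.97 and 14.48 in the control. Vwf rose by 3.81, the tight-junction gene Cldn5 by 3.53 and Cdh5, the cadherin of endothelial junctions, by 2.43.

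**Figure D2:**
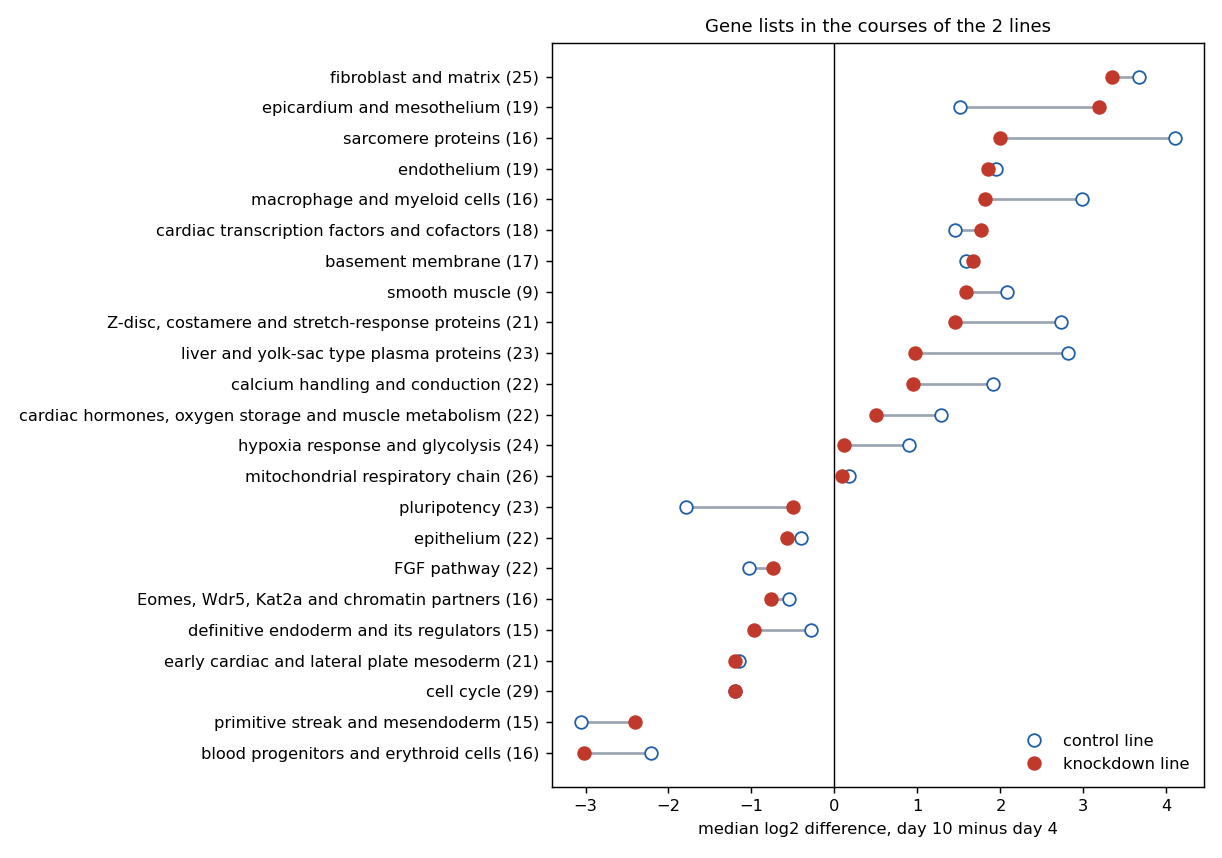
Median log2 difference from day 4 to day 10 (horizontal axis) of each gene list (vertical axis, with the number of measured genes in brackets), as a filled red circle for the knockdown line and an open blue circle for the control line, joined by a grey bar. The medians of sarcomere proteins lie at 1.99 and 4.10, those of the epicardium at 3.19 and 1.52, and the median of all measured genes is 0.

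Contractile genes rose. Of 16 measured sarcomere genes 10 rose and 0 fell, with a list median of 1.99, and 11 rose in the control course with a median of 4.10. Nkx2-5, Myl7, Myl2, Myh7 and Myh6, which help to define heart muscle, were not analysed here. Actc1, cardiac alpha-actin, was at 7.50 in ESCs, 10.59 and 16.81 in the knockdown line and 10.35 and 17.82 in the control line, a rise of 6.21 or 74.2-fold. Tnnt2, cardiac troponin T, was at 7.26 in ESCs, 8.51 and 15.94 in the knockdown line and 8.82 and 12.89 in the control line. It rose by 7.43, or 173-fold, in the knockdown line and by 4.07 in the control, on 1 probe. Tnnt2 was the exception: the other 15 of the 16 sarcomere genes had a smaller difference in the knockdown than in the control course, by any amount, against 46.2% of all measured genes. By at least 2-fold it was smaller in 7 and larger in 1 of the 16, and with 1 array a group the difference between the lines was not tested here or in any list below. In all, the knockdown course was at least 2-fold above the control course in 2.67% of all measured genes and below in 2.67%.

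The promoter windows of 4 contractile or muscle-response genes are shown because these genes were higher at day 10 than at day 4 in both lines, and because they carry short motifs known from muscle promoters. Each window runs from 250 bases before to 50 after the RefSeq start on GRCm38.p6, 5′ to 3′ on the gene's strand. Capitals mark matches to 5 motifs. They are the TATA box with the letters TATAAA, the site of GATA factors with the letters AGATAA, the MCAT element of TEAD factors with the letters CATTCC, the half-site of T-box factors with the letters TCACACC, and the CArG box of serum response factor. Actc1 lies at chr2:114052826-114053125 on the minus strand and Acta1 at chr8:123894726-123895025 on the minus strand. Ankrd1 lies at chr19:36119795-36120094 on the minus strand and Tnnt2 at chr1:135836084-135836383 on the plus strand.
Actc1: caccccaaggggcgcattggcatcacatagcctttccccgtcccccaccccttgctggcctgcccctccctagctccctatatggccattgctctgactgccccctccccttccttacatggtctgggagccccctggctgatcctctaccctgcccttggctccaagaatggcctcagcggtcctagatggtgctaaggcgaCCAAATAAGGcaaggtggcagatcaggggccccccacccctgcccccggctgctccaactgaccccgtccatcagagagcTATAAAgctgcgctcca
Acta1: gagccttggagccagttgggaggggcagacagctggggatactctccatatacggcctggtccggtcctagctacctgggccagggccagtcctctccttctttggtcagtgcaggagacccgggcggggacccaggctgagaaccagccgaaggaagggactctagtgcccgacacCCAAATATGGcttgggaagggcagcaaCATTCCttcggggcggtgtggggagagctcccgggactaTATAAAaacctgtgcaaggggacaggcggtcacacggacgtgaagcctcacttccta
Ankrd1: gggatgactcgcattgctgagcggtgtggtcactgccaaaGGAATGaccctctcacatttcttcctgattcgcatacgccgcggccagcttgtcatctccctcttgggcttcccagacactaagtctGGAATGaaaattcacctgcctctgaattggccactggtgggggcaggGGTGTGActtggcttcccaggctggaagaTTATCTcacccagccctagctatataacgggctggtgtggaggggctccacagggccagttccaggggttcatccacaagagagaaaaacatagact
Tnnt2: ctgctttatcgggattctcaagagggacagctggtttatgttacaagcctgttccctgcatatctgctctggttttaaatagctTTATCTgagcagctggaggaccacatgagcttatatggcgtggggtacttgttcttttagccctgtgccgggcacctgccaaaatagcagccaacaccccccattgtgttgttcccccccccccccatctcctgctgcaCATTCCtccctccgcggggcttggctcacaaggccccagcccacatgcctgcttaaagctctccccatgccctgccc
The Actc1 window holds 1 TATA box and 1 CArG box, and that of Acta1 a TATA box, an MCAT element and a CArG box. The Ankrd1 window holds 1 GATA site, 2 MCAT elements and 1 T-box half-site, and that of Tnnt2 a GATA site and an MCAT element, and no marked match overlaps another.

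Motifs were searched on both strands, together with the E-box (CANNTG) and the CCAAT box (CCAAT), which are not marked. Of 27025 promoters of the same length, 1.57% hold a CArG box, 14.6% an MCAT element, 14.2% a TATA box, 11.4% a GATA site, 3.96% a T-box half-site, 72.1% an E-box and 37.9% a CCAAT box. Among the 1647 genes that rose in the knockdown course and have a window, a CArG box stands in 1.76% and an MCAT element in 15.1%, and among the 1676 that fell, in 0.955% and 10.6%. Of the sarcomere and Z-disc genes that rose, 20 have a window. Of these 20 windows 4 hold a CArG box, 8 an MCAT element, 5 a TATA box, 4 a GATA site and 3 a T-box half-site. The 4 windows with a CArG box belong to Acta1, Actc1, Fhl2 and Ldb3. Of 5 windows of smooth muscle risers 0 hold a CArG box, a TATA box, a GATA site or a T-box half-site, and 3 an MCAT element. Among genes at least 16-fold higher, 1.48% of 135 windows hold a CArG box and 20.7% an MCAT element. Among kept genes under 2-fold the shares are 1.33% and 11.6%, with a TATA box in 6.97% and a GATA site in 5.78%. A match describes letters in the window and no binding was measured.

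Skeletal alpha-actin, Acta1, which the embryonic heart also uses, was at 10.46 in ESCs, 8.04 and 9.90 in the knockdown line and 8.15 and 13.09 in the control line. It rose by 1.87 in the knockdown line and stayed below its ESC level, whereas it rose by 4.94 in the control. Ttn, the giant spring of the sarcomere, was at 11.03 in ESCs, 10.48 and 13.00 in the knockdown line and 10.47 and 15.56 in the control. The lines began alike and the rises were 2.52 and 5.10, or 5.73-fold and 34.2-fold. Actn2, the actinin that anchors thin filaments, rose by 2.12 against 4.48, and Tnni3, cardiac troponin I, by 3.71 against 5.55. Tmod1, which caps thin filaments, rose by 5.43 against 6.20.

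Of 21 Z-disc and muscle-response genes 13 rose and 1 fell, and 18 of the 21 had the smaller difference in the knockdown course, 12 of them by at least 2-fold. Ankrd1, a stretch-responsive protein of the sarcomere, went from the floor to 12.73, a rise of at least 6.09, and from 6.84 to 15.19 in the control line. Csrp3, a muscle LIM protein, was at the floor in ESCs, at 8.19 and 13.87 in the knockdown line and at 7.77 and 16.16 in the control. It rose by 5.68 and 8.39, so the knockdown line was slightly higher at day 4 and lower at day 10. Hspb3 and Smpx rose from the floor by at least 4.83 and 4.79, and Des, the intermediate filament of muscle, by 2.86. The caveolar protein gene Cavin4 fell by 1.41.

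Genes of calcium handling and excitation gave 9 risers and 0 fallers of 22. Pln, the inhibitor of the calcium pump, rose from the floor by at least 5.36, and Popdc2, a membrane protein of heart cells, by 5.64 from 8.62 to 14.26. The other probes of Popdc2 gave 4.52 and 3.84. Gja1, a gap-junction protein, was at 16.71 and 16.13. Trdn, which holds the calcium release complex, differed by -0.84 on its brightest probe and by 1.21 and 3.78 on its others, so its direction is not settled by these probes. Of 22 genes of heart metabolism and secretion 7 rose and 1 fell, and 12 rose in the control course. The natriuretic peptide gene Nppa, a product of embryonic atrial and ventricular muscle, was at 7.42 in ESCs, 8.03 and 12.52 in the knockdown line and 7.75 and 13.94 in the control. Nppb was 9.74 and 9.55 in the knockdown line and 9.44 and 10.78 in the control, so it rose only in the control by the 2-fold rule, and the difference was not tested. Pgam2, the muscle form of a glycolytic enzyme, rose by 4.85 against 7.67, and Mlip, a lamin-interacting protein of muscle, by 2.62 against 5.71. Tfam, which maintains mitochondrial DNA, fell by 1.09.

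The list of heart transcription factors and co-factors had like medians in both courses, 1.77 and 1.45. It includes Ankrd1 and Csrp3, which are also counted among the Z-disc genes above. Both are among its risers and among its members below the control course, at -2.27 and -2.71. Of 18 in the list of cardiac factors and co-factors 10 rose and 3 fell in the knockdown course, and its difference was at least 2-fold above that of the control course in 2 of them and below in 5. Tbx5, of the first heart field, was at 10.57 and 13.08 in the knockdown line and 10.88 and 13.45 in the control, rises of 2.51 and 2.56. Hand2 rose by 3.07 against 2.03, and Gata6 by 2.61 against 2.04. Mef2c, an activator of muscle genes, rose by 4.76 and 4.50, and its second probe gave 2.63. Zfpm2, a GATA cofactor, rose by 4.34 against 2.55, and Gata4 by 1.02 against 0.06. Isl1, of the second heart field, fell by 1.73 from 12.17 to 10.44. Tbx20 fell by 1.51 from 10.51, and in the control line it was 10.38 and 10.39. Markers of skeletal muscle did not move together: of 8 measured, Mymx and Tnni2 rose and Tnnt3 fell, and a second probe of Mymx gave -0.24. The label cardiomyocytes thus has contractile and heart-factor RNA at day 10 in the knockdown line, beside RNA of several other cell types described next.

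**Figure D3:**
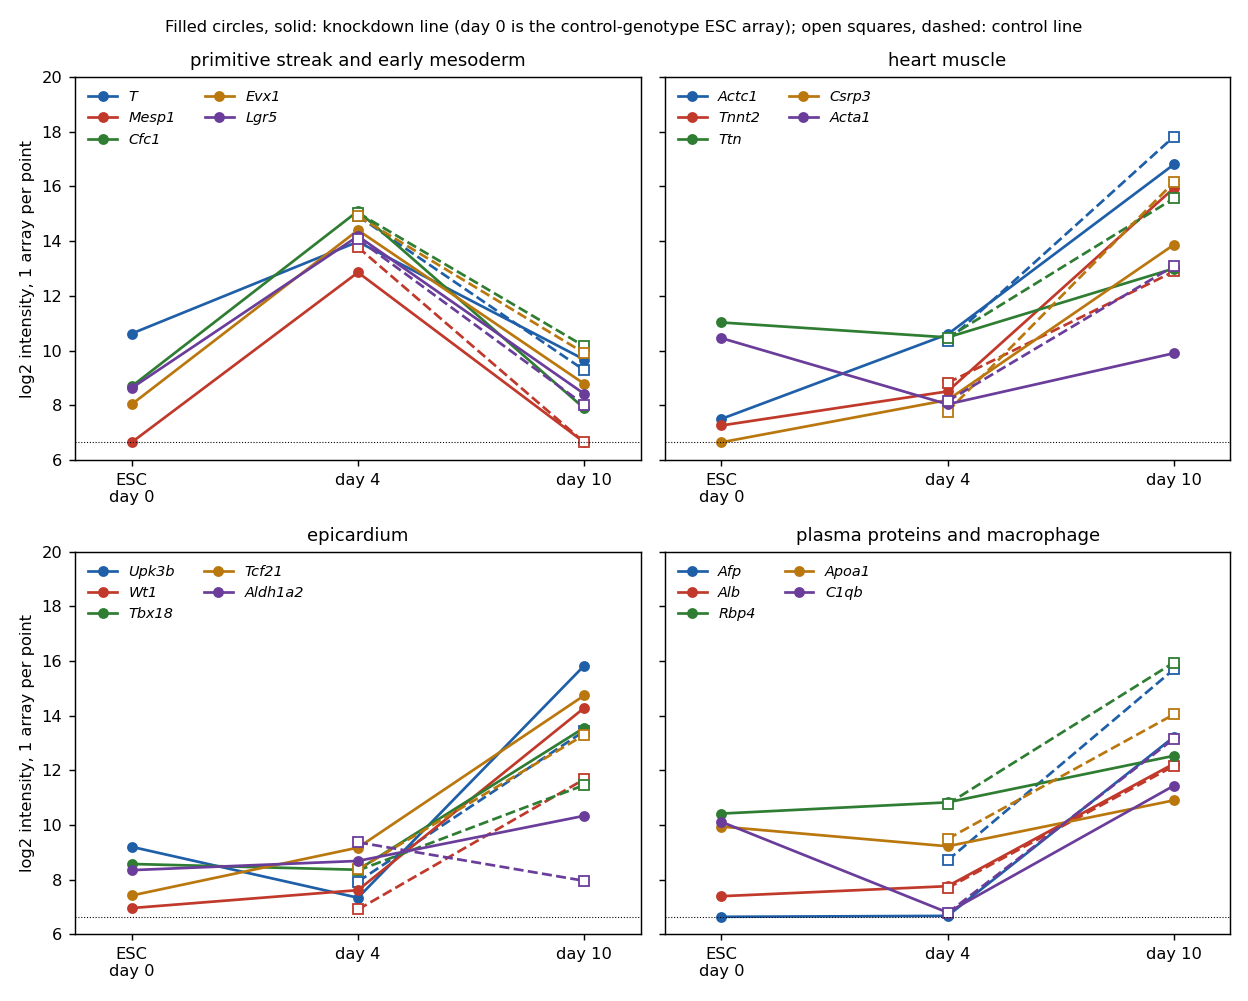
Log2 intensity of single genes on the 5 arrays against the day of differentiation. Filled circles joined by solid lines are the knockdown line (with the control-genotype ESC array at day 0), open squares joined by dashed lines are the control line, and the dotted line is the floor of 6.64, with 1 array behind each point. Ttn and Csrp3 end lower in the knockdown line, and Tnnt2, Wt1 and Upk3b end higher.

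Matrix and fibroblast genes gave the largest rise of all lists by median. Of 25 measured 21 rose and 0 fell, in either line, with medians of 3.34 and 3.67. Lum, a small matrix proteoglycan, went from the floor to 15.69, at least 9.05 higher, and Col3a1, a fibrillar collagen, from the floor to 14.24, at least 7.60 higher. Dcn, another proteoglycan, was at 13.80 in ESCs, 8.08 and 15.79 in the knockdown line and 8.94 and 15.58 in the control line. Col1a2 was at 12.39 in ESCs, 8.23 and 15.58 in the knockdown line and 8.27 and 15.44 in the control. For both genes the ESC array was above either day 4 array. The list median stood at 12.30 on the ESC array, 9.42 at day 4 and 14.42 at day 10, and what part feeder cells had in the ESC level was not tested. Postn, a matrix protein of fibroblasts and cushions, rose by 6.71 to 15.57, and Igfbp7 by 7.48, its second probe by 1.54. Basement membrane genes gave 11 risers and 0 fallers of 17, among them the laminin chain Lama2, by 4.06, and nidogen, Nid1, by 3.84. Smooth muscle genes gave 6 of 9, with Acta2, smooth muscle actin, rising by 6.28 to 18.06 and by 4.46 on its other probe.

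The gene with the largest rise of those above the floor on both arrays was Ptn, a secreted heparin-binding growth factor. Its levels were 10.85 in ESCs, 9.19 and 18.24 in the knockdown line and 10.67 and 16.99 in the control line. The knockdown line began lower and ended higher, a rise of 9.06, or 532-fold, against 6.32. Next in order came Upk3b, Upk1b, Dcn, Igfbp7, Tnnt2, Col1a2, Gpr83, Smoc2 and Postn.

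Epicardial and mesothelial genes rose more in the knockdown line than in the control line. Of 19 measured 14 rose and 1 fell, with a median of 3.19, against 8 and 3 with a median of 1.52 in the control course. In 10 of the 19 the knockdown course was at least 2-fold above the control course and in 0 below. Upk3b, a uroplakin of mesothelium, was at 9.20 in ESCs, 7.34 and 15.83 in the knockdown line and 7.93 and 13.44 in the control line, a rise of 8.49 against 5.51. Upk1b, its relative, rose by 8.42 against 6.82. Wt1, a zinc-finger factor of the epicardium, was at 6.96 in ESCs, 7.62 and 14.29 in the knockdown line and 6.91 and 11.68 in the control line. At day 4 all 3 were below the filter level of 9.16 in both lines, and at day 10 the knockdown line was the highest of the 5 arrays.

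Tbx18, a T-box factor of the epicardium, was at 8.36 and 13.56 in the knockdown line and 8.34 and 11.46 in the control, a rise of 5.20 against 3.12, and its second probe gave 5.25 in the knockdown line. Tcf21, a factor of epicardial and fibroblast precursors, rose by 5.57 against 4.92. The retinoid enzyme Aldh1a1 rose by 4.44 against 4.17, which is close. Aldh1a2, which makes retinoic acid in the epicardium, was at 8.35 in ESCs, 8.69 and 10.34 in the knockdown line and 9.37 and 7.96 in the control line, so that it rose in one line by 1.65 and fell in the other by 1.41. Sema3d, a guidance factor of the epicardium, rose by 3.19 on its brightest probe and differed by -0.77 on another, so its direction is uncertain. Podxl, a surface sialomucin, fell by 1.57, and Krt18 was 0.58 lower. Wt1 also marks gonad and kidney, and of 13 genes of those organs 3 rose and 2 fell in the knockdown line, Wt1 being 1 of the 3.

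**Figure D4:**
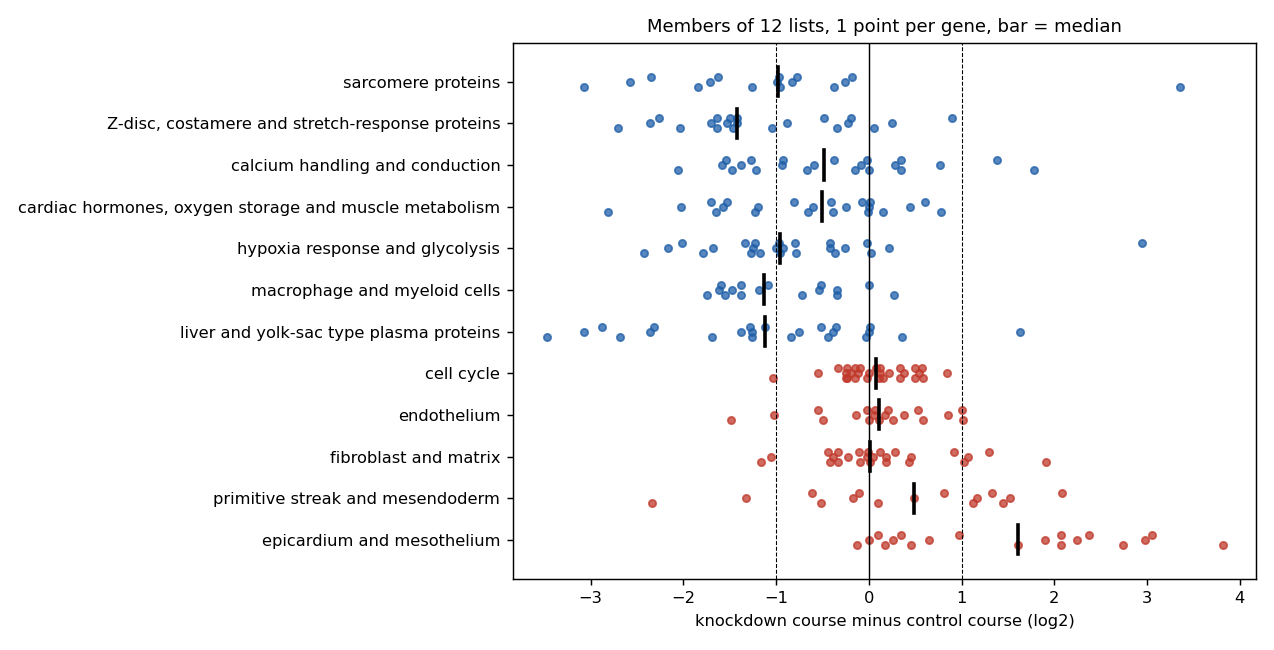
Knockdown course minus control course (log2, horizontal axis) for the measured genes of 12 lists, 1 point a gene, with a bar at each list's median and dashed lines at a difference of 1 either way. Lists with a median below 0 are blue and the others red. Epicardial genes lie mostly to the right, with 10 of 19 beyond the dashed line, and sarcomere, Z-disc, macrophage and liver genes mostly to the left.

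Macrophage genes rose less in the knockdown line, with 9 risers of 16 and a median of 1.81 against 11 and 2.98, and 14 of 16 smaller in the knockdown course, 8 of them by at least 2-fold. C1qb, a complement chain of tissue macrophages, was at 10.12 in ESCs, 6.80 and 11.44 in the knockdown line and 6.78 and 13.16 in the control line. Csf1r, the receptor for macrophage growth factor, rose by 3.42 to 10.24 and was at 11.62 at day 10 in the control. Spi1, the myeloid master factor, was at 10.96 and 10.81. The list's median level was 10.63 in the knockdown and 11.81 in the control line at day 10, and its part in other differences between the lines was not tested.

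Genes of liver and yolk-sac plasma proteins had a lower median too. Of 23 measured 9 rose and 0 fell with a median of 0.97, against 14 and 0 with a median of 2.81, and 19 of 23 were smaller in the knockdown course, 9 of them by at least 2-fold. Afp, alpha-fetoprotein, was at the floor in ESCs, at 6.68 and 13.22 in the knockdown line and at 8.71 and 15.70 in the control line, rises of 6.55 and 6.99 from unequal starts. Alb, albumin, rose alike, by 4.48 and 4.46. Rbp4, the carrier of retinol, was at 10.42 in ESCs, 10.83 and 12.53 in the knockdown line and 10.77 and 15.94 in the control. It rose by 1.70 and 5.18 on that probe, and its other probes gave 2.09 and -0.26 in the knockdown line. Apom was 8.76 and 9.27 in the knockdown line and 9.17 and 12.76 in the control, and Ttr, transthyretin, 11.08 and 11.57 against 12.16 and 15.01. Neither rose by the 2-fold rule in the knockdown line. Apob was not kept there, with 7.19 and 7.65, and was 3.14 higher in the control course.

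Of 15 markers of definitive and gut endoderm 7 fell and 2 rose, with a median of -0.97. In the control course 5 fell and 1 rose, with a median of -0.28. The list did not move together: Gata6 and Gata4 rose, and Sox17 was level at 11.27 and 11.08 in the knockdown line. Foxa1, Foxa2 and Hnf4a were not kept there. Spink1, a trypsin inhibitor, was at 12.14 and 8.63 in the knockdown line and at 13.88 and 13.80 in the control line. Tdo2, tryptophan dioxygenase of the liver, is not on the list. It was at the floor in ESCs, 12.17 and 10.38 in the knockdown line and 14.12 at day 10 in the control, where it had risen by 2.11. In the knockdown line it fell by 1.78. The chemokine receptor Cxcr4 fell by 2.76. Among 22 epithelial genes 7 fell and 2 rose, with a fall of 4.20 in the protease inhibitor Spint1 and a rise of 2.59 in Krt7, a keratin of simple epithelia, mesothelium included. Krt7 differed by -0.27 in the control.

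Neural genes held both directions, 5 of 21 up and 3 down, with a median of -0.12 against -0.66. Ncam1, an adhesion molecule also present in heart and mesothelium, rose by 4.38 to 15.77, and Gap43, of growing axons, by 2.79. Stmn2, a tubulin-binding protein of neurons, was at 10.59 and 12.07 in the knockdown line and at 11.77 and 10.39 in the control. Nefl, a neurofilament, fell by 2.31. Trophoblast genes gave 3 risers and 4 fallers of 13. The risers were the X-linked homeobox genes Rhox6 and Rhox9, by 2.71 and 2.96, and Krt7, and in the control course the Rhox genes differed by -0.47 and 0.02.

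Hox genes, which encode position along the trunk, did not move together: 4 of 20 in the A and B clusters rose and 4 fell, as did 4 and 3 of 18 in the C and D clusters. Hoxa10 was at 7.68 in ESCs, 9.24 and 12.25 in the knockdown line and 7.85 at day 4 in the control line, where day 10 was 0.15 higher. Hoxa9 was at 7.51 and 10.83 in the knockdown line, and in the control line at the floor and 7.49. Both were higher in the knockdown line at day 4 already, and both rose further there, by 3.01 and 3.32. Hoxa11 rose by 1.78 to 10.57 and Hoxd10 by 1.68 to 12.48, and in the control course they differed by -0.80 and -0.83.

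Some Hox genes went the other way. Hoxb6 was at 7.97 in ESCs, 12.69 and 9.41 in the knockdown line and 10.43 and 10.12 in the control line, and Hoxb8 10.52 and 8.72 against 7.91 and 9.14. Both stood higher at day 4 in the knockdown line and lower at day 10. Hoxd1 fell in either line, from 12.52 to the floor in the knockdown line, by at least 5.88. Of 18 genes of the limb and lateral plate 9 rose and 1 fell, among them Meis1, a partner of Hox proteins, by 3.73, and Shox2, of the sinus node and limb, from the floor by at least 2.93.

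Of 36 Wnt pathway genes 12 rose and 11 fell. Receptors were among both: Lgr5, a receptor for R-spondin, fell by 5.77, from 14.18 to 8.42, and Fzd10, a Wnt receptor, fell by 2.69, while its relatives Fzd1, Fzd7 and Fzd2 rose by 3.36, 1.91 and 1.70. Lef1, a nuclear effector, fell by 3.62, and Sp5, a direct target, fell by 2.52. The secreted antagonist genes Sfrp1, Sfrp5 and Dkk3 rose by 6.10, 3.63 and 2.67. In 11 of the 36 the knockdown course was at least 2-fold above the control course, and in 2 below. Wnt2b, a ligand, was at 8.32 and 9.32 in the knockdown line and at 9.94 and 8.22 in the control.

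Other pathways were mixed. Of 22 genes of Nodal, Activin and TGF-beta signalling 6 rose and 4 fell. Tgfbi, a matrix protein that TGF-beta induces, rose by 5.98, the co-receptor Tgfbr3 by 3.84, and Foxh1, the nuclear partner of Smad2 in Nodal signalling, fell by 2.26. Of 26 genes of the Bmp pathway 4 rose and 6 fell. Of 15 Notch genes 4 rose and 3 fell, the ligand Jag1 by 2.11 upward and the target Hes1 by 2.52 downward, with a second Hes1 probe at -0.11. Of 18 retinoid genes 8 rose and 4 fell. Rarb, a receptor and direct target of retinoic acid, went from the floor to 13.05, at least 6.41 higher, and in the control line from the floor to 11.17. The orphan receptors Nr2f2 and Nr2f1, which mark atrial and venous identity, rose by 5.78 and 5.36, against 4.80 and 3.41. Crabp1, which binds retinoic acid in the cytoplasm, fell by 3.40.

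Hypoxia and glycolysis genes differed between the lines. Of 24 measured 6 rose and 5 fell in the knockdown line, with a median of 0.12, whereas 11 rose and 2 fell in the control line, with a median of 0.89, and 21 of 24 were smaller in the knockdown course, 10 of them by at least 2-fold. Slc2a3, a glucose transporter, was at 18.03 in ESCs, 17.23 and 15.46 in the knockdown line and 16.54 and 16.95 in the control line. Slc2a1, its relative, fell by 1.98 against 0.73. Vegfa, the vascular growth factor, rose by 1.11 against 2.80, and Adm, adrenomedullin, by 3.54 against 4.50. Genes of mitochondrial respiration hardly moved: 1 of 26, Ndufb3, rose, by 1.11, and 0 fell.

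Among 16 chromatin regulators and partners of Eomes 5 fell, Eomes itself among them, and 0 rose. Wdr5, a core subunit of histone methyltransferase complexes, was 0.86 lower at day 10, and Kat2a, an acetyltransferase, 0.78 lower. Kdm6a, a histone demethylase, was at 13.46 in ESCs, 13.38 and 11.37 in the knockdown line and 13.40 and 13.05 in the control line, and fell by 2.01 against 0.35. Of 20 imprinted genes 7 rose and 1 fell. Plagl1, a zinc-finger regulator of imprinted genes, was at 8.40 and 13.99 in the knockdown line and 9.37 and 17.51 in the control. H19, a noncoding RNA, was at 10.84 and 11.03 against 13.00 and 15.58. Dlk1 rose by 4.19, its second probe by 2.33, and Igf2 was already at 18.17 at day 4. Phlda2, a growth inhibitor of the placenta, fell by 3.67.

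Set against the ESC array, most genes that rose ended above ESCs, and most genes that fell ended below. The day 10 array that is compared here also chose the risers and fallers, which favours these directions. No share over all kept genes was computed, so the counts only describe the chosen genes. Of the 2139 risers, 1517 were at least 2-fold above the ESC array at day 10, 531 within 2-fold of it and 91 below. At day 4, 563 of them had been at least 2-fold below ESCs and 312 above. Of the 2062 fallers, 1213 ended at least 2-fold below ESCs, 772 within 2-fold and 77 above, and 401 had been at least 2-fold above ESCs at day 4. At the floor, 78 risers began at day 4 and 15 fallers ended at day 10, and their differences are lower bounds.

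**Figure D5:**
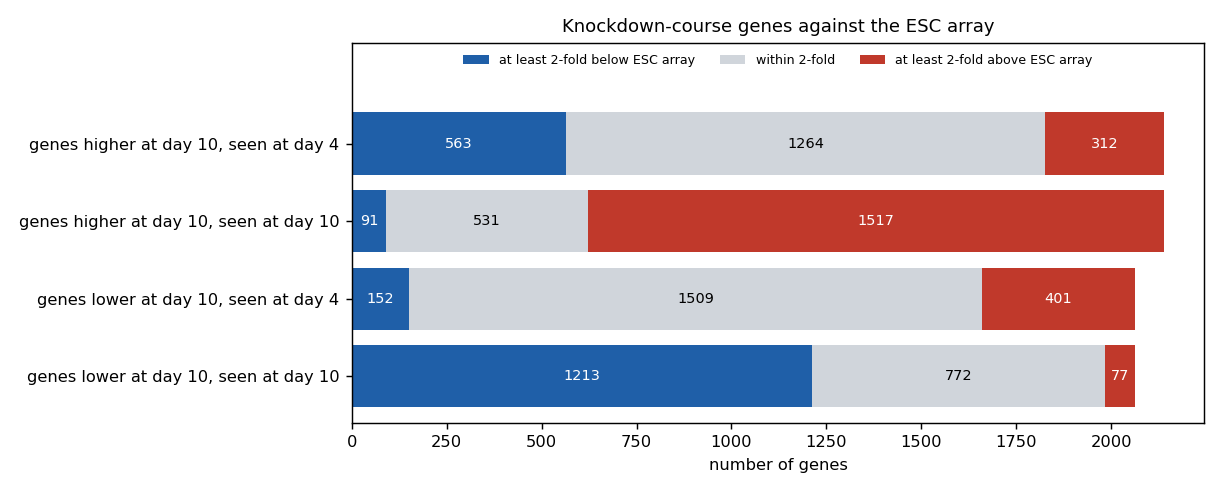
Numbers of genes (horizontal axis) that rose or fell in the knockdown course, split by whether the knockdown array at day 4 or day 10 was at least 2-fold below the ESC array, within 2-fold of it or at least 2-fold above it. Of the 2139 risers 1517 lie above ESCs at day 10, and of the 2062 fallers 772 lie within 2-fold.

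In all, 473 genes had a knockdown course at least 2-fold above the control course and 474 at least 2-fold below. Of those below, 311 were genes that rose in the control line and 112 were genes that fell in the knockdown line. Of those above, 258 rose in the knockdown line and 166 fell in the control line. Fgf5, a ligand of the primed epiblast, had the largest difference above with all 4 arrays over the floor. It was at 8.23 in ESCs, 7.42 and 9.62 in the knockdown line and 10.32 and 7.06 in the control line, crossing over between the days. Zeb2, a transcriptional repressor of epithelial genes, was at the floor in the knockdown line at day 4 and at 11.83 at day 10, and between 11.04 and 11.43 in the control line. Mrpl36, a mitochondrial ribosomal protein, was at 14.78 at day 4 and at the floor at day 10 in the knockdown line, and at the floor in ESCs too. For Zeb2 and Mrpl36 1 array carries the difference, and no second array of that group was at hand. Among the 4 arrays of days 4 and 10, Zeb2 and Mrpl36 were the genes at the floor on 1 array while past the filter on the other 3. They are not the only genes set apart by 1 array. By at least 16-fold from the other 3, the knockdown array had 1 gene above and 2 below at day 4. At day 10 it had 3 above and 1 below. Cep57l1 was at 7.85 in the knockdown line at day 4 and 13.16 at day 10, and at 12.56 and 13.40 in the control line. Prdm14, described above, likewise rests on the knockdown array at day 10.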

How the data were processed

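Total RNA of 5 cultures was measured on single-colour arrays and grouped by the sample titles, 1 array a group. The deposited values are linear intensities, read with Agilent Feature Extraction 10.7.1.1 per the submitters' processing notes. Whether the authors normalized them is not stated there. Deposited medians ran from 344 to 745 and 1050 probes of the knockdown array at day 10 were at or below 0, against 0 to 38 on the other arrays. The arrays were therefore quantile normalized, floored at 100 and put on the log2 scale. What part that low end had in falls towards the floor, or in differences between the courses, was not tested. The floor took 19.0 to 19.1% of each array's probes. Of 26423 probes 20377 carried a gene symbol and 6046 were unnamed here, and of the 1882 of these that were kept 301 rose and 421 fell. Symbols were updated through a RefSeq table of GRCm38.p6. Each gene was read from its brightest probe, and 2278 genes had more than 1.

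A difference was called at 2-fold where the brighter array reached the 50th percentile, and a gene at the floor gives a bound. List counts and medians are over all measured members. Genes named were drawn from the 15 highest and 15 lowest differences and, per list, up to 4 members in its direction and 2 against. They were also drawn from the 10 highest and 10 lowest differences between the courses and from genes with opposite courses. A fixed set of known genes of heart formation was added. Not all genes so drawn are described. Among those left out are Fcgrt, Hpgd, Sult4a1 and Smim10l2a. Mmp17, Htr3b, Dbc1 and Pcdh19 were left out too, with knockdown minus control courses of 3.91, 3.23, 3.22 and 3.17. So were Tff3, Gipr and Nnat, at -3.70, -3.35 and -3.04. Other genes are named by their place in a list and were chosen after their values were seen. The 43 lists and the choice of the course itself were made with earlier results of these data known. Scripts used Python 3.11.15, numpy 2.4.6, pandas 2.3.3, scipy 1.17.1, statsmodels 0.14.6 and matplotlib 3.10.9, and were tested on simulated data. The number of arrays limits the precision. Alternatives changed the scaling, floor, filter, fold threshold and choice of probe. Of the deposited columns, 0 matched no sample.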

Additional observations from a re-analysis of the deposited data

Results flagged for a closer look

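In 9 genes both courses were at least 2-fold and ran in opposite directions, with all 4 arrays of days 4 and 10 above the floor. The difference was not tested, since each group held 1 array. In 8 of these 9 the knockdown course was the higher. Knockdown course minus control course was 5.47 for Fgf5, a ligand of the primed epiblast, 3.70 for Gfra3, a receptor for a neurotrophic factor, and 3.06 for the retinoic acid enzyme Aldh1a2. It was 2.58 for Sfrp2, a secreted Wnt antagonist that went from 12.32 to 13.71 in the knockdown line and from 12.55 to 11.36 in the control line. The Wnt ligand gene Wnt2b gave 2.72, the neuronal gene Stmn2 2.85, Zcchc12 2.43 and the gene model Gm12359 3.02. Tdo2, tryptophan dioxygenase, was the gene in the other direction, at -3.90. Gfra3 went from 9.33 to 10.73 in the knockdown line and from 10.67 to 8.36 in the control line, so the knockdown array was the lower at day 4 and the higher at day 10. The same crossing holds for Fgf5, Aldh1a2, Sfrp2, Stmn2, Wnt2b, Zcchc12 and Gm12359. Tdo2 began alike in both lines. In all 9 the signs stayed opposite under each alternative scaling. The other floors and the mean of all probes left the values unchanged, except for Fgf5 at a floor of 200. Those settings are therefore no check of the signs.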

How the results depend on the processing

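With the values as deposited, 3925 genes fell in the knockdown course, 1165 rose and 5232 fell in the control course, and the knockdown course was at least 2-fold above the control course for 900 genes and below for 306. With the filter at the 75th percentile, 1202 rose and 1194 fell in the knockdown course, 1222 and 1274 in the control course, and 160 and 241 lay above and below. At a 4-fold threshold the same counts were 889, 415, 967, 462, 109 and 79. These last settings keep fewer genes or ask for more by construction. The correlation between the courses ran from 0.888 with no filter to 0.944 with the filter at the 75th percentile. Of 258 list medians under other settings 254 moved by less than the between-probe SD, and the 4 that moved did so with the values as deposited: streak -3.27, skeletal muscle -0.29, nephric and gonadal -1.22 and Notch -0.84. The cause was not tested. That SD of 0.718 is for a single probe and is a loose limit for a list median. The largest shift of the median of all genes, -0.58, lies within it. A median near 0 can thus change direction and still count as unmoved. Relative to the median of all genes, which the scaling shifts, the Notch median of 0.17 turned negative with the values as deposited and with 75th percentile scaling, and the Nodal median of -0.07 became 0.08 with loess centring. Of 1632 values of named genes 92 moved by more than that SD, 38 of them with the values as deposited. The sign changed for 16 of the 272 genes, of which 0 were at least 2-fold here, and Trdn went from -0.84 to 1.38 with the mean of all its probes. No paired analysis was possible because each group held 1 array, and no replicate could be left out. Low signals are limited by the floor, under which differences have no order.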

Other observations

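Gene families outside the lists, grouped by symbol after values of these data had been seen, moved in both directions. Cytoplasmic tRNA synthetases, which charge tRNAs for protein synthesis, fell in 10 of 15, with a median of -1.41 in the knockdown course and -1.61 in the control. Cars went from 13.71 to 11.21 in the knockdown line and from 13.63 to 11.13 in the control line, and Tars from 14.99 to 12.54 and from 14.96 to 12.56. Chac1, Slc1a4 and Mthfd2, genes of glutathione breakdown, amino acid transport and one-carbon metabolism picked after their values were seen, fell by 4.28, 4.12 and 3.82. Of 39 cytosolic ribosomal protein genes 12 fell and 2 rose, and of 38 proteasome subunits 9 fell and 1 rose. All 8 kept members of the 9 Mcm genes fell, with a median of -1.69.

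Secreted and adhesive families differed among themselves. Of 13 genes of the insulin-like growth factor axis 9 rose and 0 fell, with a median of 2.94, and Igfbp5 reached 16.05 from 11.76 in the knockdown line. Of 44 collagen chains 20 rose and 3 fell, of 31 integrins 10 rose and 1 fell, and of 19 Adamts proteases 8 rose and 1 fell. Of 28 claudins 1 rose and 3 fell, and of 23 classical and other cadherins 3 rose and 3 fell. Both cadherin shares, and the share of claudins that fell, were close to the 12.1% and 11.6% of all measured genes. The cadherins thus did not stand out from all genes. In the control course 23 collagen chains rose and 1 fell, 9 integrins rose and 2 fell, and 6 Adamts proteases rose and 2 fell. Among claudins 1 rose and 1 fell there, and among cadherins 3 rose and 2 fell. Itga4, an integrin chain needed by the epicardium, was at 9.63 and 12.85 in the knockdown line and at 7.44 and 13.23 in the control line. Of 32 protocadherins 8 rose and 1 fell, and Pcdhb16 went from the floor to 10.04, at least 3.40 higher. Angptl7, a secreted protein related to angiopoietins and chosen after its values were seen, went from the floor to 14.49 in the knockdown line and to 10.03 in the control. Olfactory receptor genes gave 2 risers and 35 fallers of 528, of which 69 were kept. These are 0.379% and 6.63% of the 528, against 12.1% and 11.6% of all measured genes. Only kept genes could be called, so the few kept members lower both shares. Among the 69 kept, 35 fell and 2 rose, against 18.1% and 18.7% of all kept genes. Falls were thus more frequent and rises less frequent among the kept members.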
